A study of Mus musculus with 6 samples.

Results

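The nuclear genes for the respiratory chain, the set of enzymes in the inner mitochondrial membrane that turns the oxidation of food into ATP, were compared between proliferating and differentiated C2C12 cells. Members were taken by gene symbol from the annotation of the array (Nduf, Sdha to Sdhd, Uqcr, Cox followed by a number, and Atp5), leaving out Cox6a1, Cox6a2, Cox7a1, Cox7a2, Cox7a2l, Cox8a and Cox8b, and using only probe sets annotated to 1 gene. Of 18193 genes with such a probe set, 95 met the rule, with 189 probe sets between them. Of these 95, 75 encode subunits of the finished complexes and 20 are assembly factors that share the naming. The 75 subunits comprise 34 of complex I, 4 of complex II, 8 of complex III, 12 of complex IV and 17 of complex V. Ndufa4, named for complex I, was counted with complex IV, of which it is a subunit, and its paralogue Ndufa4l2 was placed beside it.

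C2C12 is a permanent mouse cell line of muscle precursors (myoblasts), which fuse into myotubes when serum is lowered. Proliferating cells (3 samples) were kept in medium with 20% serum, and differentiated cells (3 samples) were harvested on day 6 in 2% horse serum, when a large part of the nuclei lie in multinucleated myotubes and the rest in single cells. Both groups are the same line with no transgene or drug, each RNA sample was pooled from cultures on several plates and set up on successive days, and the groups differ in serum and in time in culture as well as in differentiation. Total RNA of each sample was hybridized to 1 Affymetrix mouse expression array with biotin label.

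Complexes I and II take electrons from NADH and succinate and hand them to ubiquinone. Complex III passes them on to cytochrome c, and complex IV, cytochrome c oxidase, gives them to oxygen. The proton gradient built on the way drives complex V, the ATP synthase. Most subunits are encoded in the nucleus, a small number in mitochondrial DNA, and muscle is a tissue known for its dense content of these enzymes.

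The state of the cultures followed their labels. All 6 muscle markers (Myog, Acta1, Ckm, Myh3, Tnnt3 and Mymk) rose, with a median log2 fold change of 5.87, and the 3 measured genes of cell division (Mki67, Top2a and Cdk1) fell, with a median of -3.25. Of 15 markers of adipocytes, endothelial cells, leukocytes and reserve or satellite cells, Adgre1 alone passed the test, at 96.4 ± 20.8 in proliferating and 186 ± 18.8 in differentiated cells (mean ± SD, n = 3). Ptprc, the defining leukocyte gene, read 56.6 ± 42.5 and 30.8 ± 32.5. Pearson correlations of log2 signals over all probe sets were 0.94 within either group and 0.90 to 0.91 between them. As background, the brightest of 27 bacterial control probe sets, which match no mouse RNA, read 51.9 to 87.0 on the 6 arrays.

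No general rise of the chain accompanied differentiation. Values are array signals, and a change is the difference of mean log2(signal + 15), differentiated minus proliferating, at the brightest probe set of a gene. Of the 75 subunits, 3 rose (Ndufa6, Ndufs3 and Ndufa4l2), 5 fell (Ndufc2, Sdhb, Uqcrc1, Atp5a1 and Atp5mpl) and 67 did not pass limma's test at an adjusted p under 0.05. Those 8 are 10.7% of the subunits, beside 17.6% of all genes (8.63% higher and 9.0% lower). At an unadjusted p under 0.05 there were 26, of which 10 were higher and 16 lower in differentiated cells, beside 29.2% of all genes. The 3 arrays of one group lay wholly above or below the other 3 in 19 subunits (25.3%), beside 33.4% of all genes. Among the 8, Uqcrc1 and Ndufa4l2 changed by 1.5-fold or more. The median log2 fold change was -0.04, with an interquartile range of -0.24 to 0.08, beside 0.06 and -0.29 to 0.40 over all genes.

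Most probe sets of the subunits are bright, and bright probe sets are measured more precisely, so genes with a mean signal of 1000 or more are the closer reference. Mean signals of the subunits ran from 33.1 to 13183 with a median of 3016, and 67 of the 75 reached a mean of 1000, as did 2285 of all genes. The reference shares this floor but was not matched in level. Its median signal was 1810, beside 3357 for the 67 subunits. Of these 67, 7 passed the test (10.4%), beside 48.7% of the 2285 (21.3% higher and 27.4% lower). At an unadjusted p under 0.05 there were 25, beside 64.6%. Groups did not overlap in 18 of the 67 subunits (26.9%), beside 65.1% of genes of that brightness. Without overlap, 5 of the 67 were higher in differentiated cells, beside 28.0% of the 2285, and 13 of the 67 were lower, beside 37.2%. The interquartile range of the log2 fold change was -0.17 to 0.06 for the subunits and -0.40 to 0.29 for the reference.

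In the fit used here, the spread between arrays was small enough to bound the change in signal of most bright subunits. The intervals do not include the choice of scaling or of variance model. The median 95% confidence interval of the bright subunits spanned 0.25 on the log2 scale to either side, a factor of 1.19. For 54 of the 67 (80.6%) the whole interval lay within 1.5-fold of no change, beside 48.6% of genes of that brightness. Transcript signals per unit of total RNA are meant throughout, so fewer cells of a kind and less RNA per cell cannot be told apart.

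**Figure D1:**
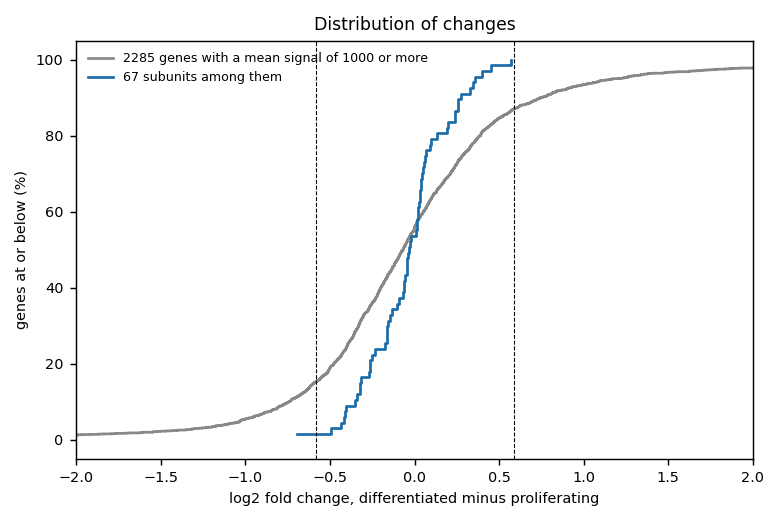
Cumulative share of genes (%, y axis) by log2 fold change, differentiated minus proliferating (x axis), for 67 subunits with a mean signal of 1000 or more (blue) and all 2285 genes of that brightness (grey). Dashed lines mark 1.5-fold, changes beyond the ends of the axis are not drawn, and the subunit curve is the steeper, with an interquartile range of -0.17 to 0.06 beside -0.40 to 0.29.

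**Figure D2:**
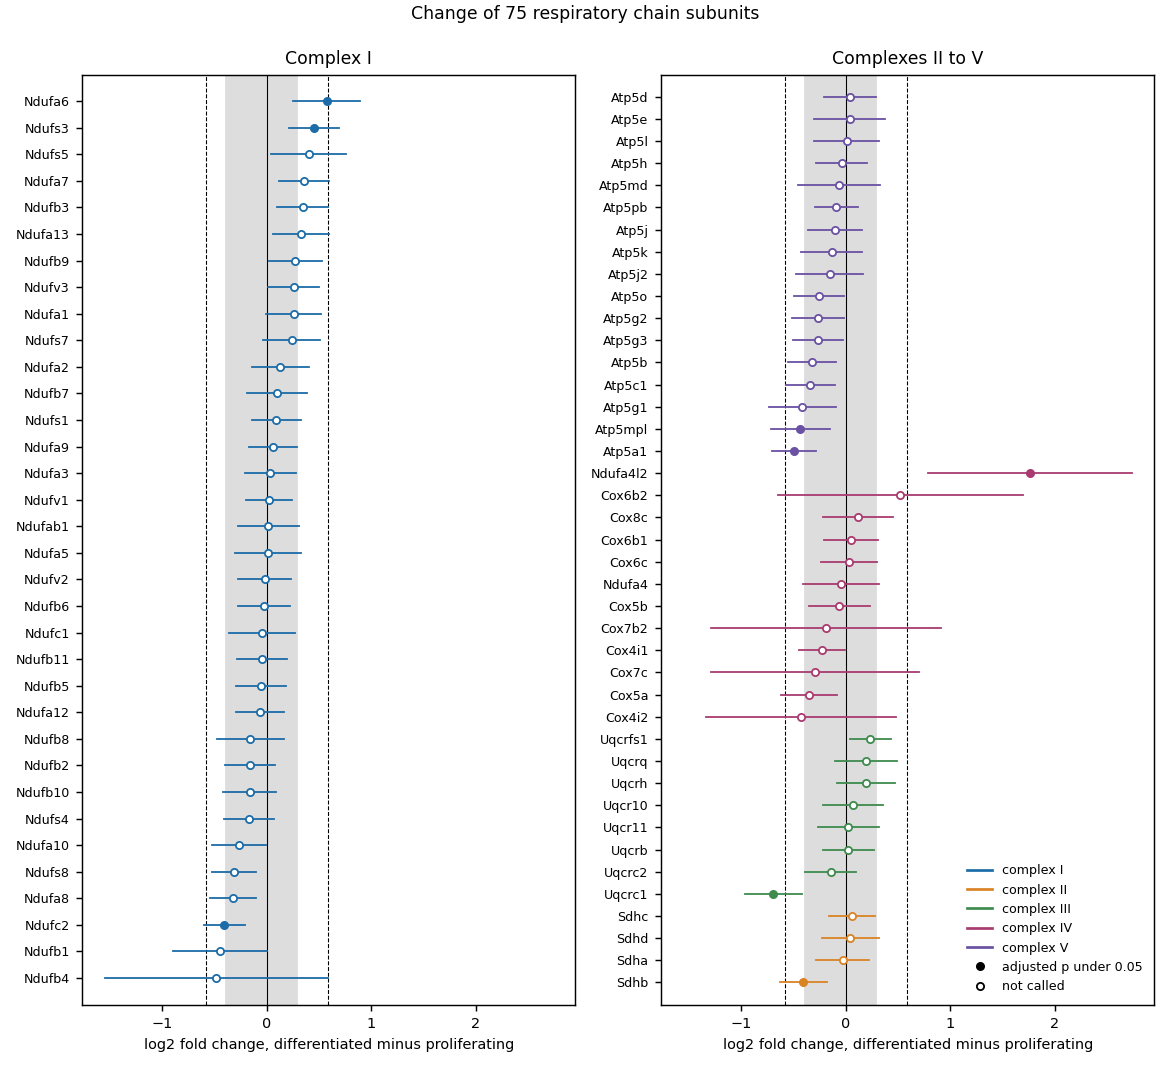
Log2 fold change (x axis, differentiated minus proliferating) with 95% confidence interval for each of 75 subunits, complex I on the left and complexes II to V on the right. Filled points passed at an adjusted p under 0.05, the grey band is the interquartile range of the 2285 genes with a mean signal of 1000 or more, dashed lines mark 1.5-fold, and 17 complex V subunits have 14 points below 0.

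The promoters of the genes that passed were read for motifs long associated with respiratory genes. RefSeq promoters (GRCm38.p6, 250 bases before to 50 after the start of the gene) were matched for 61 of the 75 subunits, among them 5 of the 8 that passed. Of those 5, the following 4 hold a motif searched and are printed for that reason, 5′ to 3′ on the strand of the gene, with the motif in capitals. NRF1, a factor known for its sites in respiratory genes, was searched as GCGCA, any base and GCGC in a row, and the ETS family, which includes GABP, as CCGGAAG, both on either strand.
Uqcrc1, chr9:108936398-108936697, plus strand, 2 NRF1 matches starting 6 and 31 bases into the gene: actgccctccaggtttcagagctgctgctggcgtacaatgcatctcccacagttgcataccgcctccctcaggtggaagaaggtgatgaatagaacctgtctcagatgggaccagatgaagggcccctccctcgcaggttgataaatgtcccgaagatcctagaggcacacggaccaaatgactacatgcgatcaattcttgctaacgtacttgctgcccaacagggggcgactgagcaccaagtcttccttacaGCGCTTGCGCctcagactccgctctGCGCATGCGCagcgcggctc
Sdhb, chr4:140961021-140961320, plus strand, 1 ETS match starting 7 bases into the gene: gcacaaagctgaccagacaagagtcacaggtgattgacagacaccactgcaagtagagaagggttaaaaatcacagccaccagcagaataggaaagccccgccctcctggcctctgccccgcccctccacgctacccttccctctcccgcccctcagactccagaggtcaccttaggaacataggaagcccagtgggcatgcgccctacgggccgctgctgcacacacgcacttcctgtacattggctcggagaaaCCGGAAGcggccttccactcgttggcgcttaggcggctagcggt
Ndufs3, chr2:90904672-90904971, minus strand, 2 ETS matches, 27 bases before the start and 2 bases into the gene: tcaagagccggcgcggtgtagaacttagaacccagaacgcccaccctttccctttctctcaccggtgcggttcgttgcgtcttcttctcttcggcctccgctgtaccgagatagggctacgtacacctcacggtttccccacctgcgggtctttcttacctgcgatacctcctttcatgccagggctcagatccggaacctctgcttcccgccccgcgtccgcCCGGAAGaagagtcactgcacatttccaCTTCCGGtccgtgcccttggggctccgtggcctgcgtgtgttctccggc
Ndufa6, chr15:82354242-82354541, minus strand, 1 NRF1 match starting 24 bases into the gene: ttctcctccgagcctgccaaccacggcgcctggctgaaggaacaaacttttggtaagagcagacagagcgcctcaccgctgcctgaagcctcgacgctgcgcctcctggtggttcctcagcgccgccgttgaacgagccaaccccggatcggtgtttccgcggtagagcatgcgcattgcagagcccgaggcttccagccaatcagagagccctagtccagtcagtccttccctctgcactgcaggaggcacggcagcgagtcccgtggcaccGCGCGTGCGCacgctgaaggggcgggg

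The same motifs stood in promoters of subunits that did not pass. The NRF1 motif was found in 13 of the 61 promoters (21.3%), beside 4.78% of 27025 mouse promoters and 7.98% of the 14367 whose genes are on the array. It stood in 5 promoters of complex I (Ndufa5, Ndufa6, Ndufa8, Ndufb4 and Ndufs5), 2 of complex II (Sdha and Sdhd), 1 of complex III (Uqcrc1) and 5 of complex V (Atp5g2, Atp5g3, Atp5h, Atp5k and Atp5o). The ETS motif was found in 14 (23.0%), beside 9.12% and 13.8%. The motif AAGGTCA of the oestrogen-related receptors, which govern many mitochondrial genes, was in 8 (13.1%, beside 4.66% and 3.85%), and the YY1 motif, AAGATGG followed directly by CGGC, was in 3 (4.92%, beside 0.699% and 1.18%). CAGCTG, an E-box of the kind that muscle regulatory factors bind, was in 5 (8.2%), beside 16.1% of all promoters. The median log2 fold change was -0.14 for the 13 subunits with the NRF1 motif and -0.05 for the 48 without, and 0.02 for the 14 with the ETS motif and -0.06 for the 47 without. These are matches of letters, not measured sites.

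In complex I, the entry point for electrons from NADH, 2 of 34 subunits rose, 1 fell and 31 did not pass, with a median log2 fold change of 0.01. Ndufa6, an accessory subunit, read 2460, 3392 and 3250 in proliferating cells and 3931, 4135 and 5509 in differentiated cells. Every differentiated array was above every proliferating one, and the log2 fold change was 0.57 (SE 0.15, adjusted p = 0.021). Ndufs3, a core subunit of the arm that delivers electrons to ubiquinone, read 2003, 2571 and 2107 against 2849, 2998 and 3280. Here too the groups did not overlap, and it rose by 0.45 (SE 0.11, adjusted p = 0.015). Ndufc2, an accessory subunit of the membrane arm, read 3693, 3852 and 3457 against 2686, 2688 and 2891, without overlap, and fell by 0.41 (SE 0.09, adjusted p = 0.008).

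The call of Ndufc2 rests on 1 of its probe sets. Its brightest carries a suffix marking probes that can match other transcripts, and 2 further probe sets that were above background gave log2 fold changes of 0.05 (adjusted p = 0.86) and -0.18 (adjusted p = 0.50).

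The core subunits of complex I, the conserved part that moves electrons from NADH to ubiquinone, ran from -0.31 to 0.45 with a median of 0.06 over 6 measured members. Ndufv1, which binds NADH and FMN, read 2080 ± 91.0 in proliferating and 2115 ± 217 in differentiated cells, and the 95% interval of its ratio was 0.87 to 1.18. A second Ndufv1 probe set, 1655 and 2187 on average, was higher without overlap (0.38, adjusted p = 0.056). Its interval was 1.09 to 1.56. Ndufs1 and Ndufv2, partners of Ndufv1 at the site of electron entry, had log2 fold changes of 0.09 and -0.02. In the quinone arm, Ndufs7 read 2723 ± 565 and 3174 ± 20.9 (log2 fold change 0.24, adjusted p = 0.30). Ndufs8 read 4191, 4406 and 4339 against 3258, 3304 and 3864, lower on all 3 differentiated arrays, and missed the threshold (-0.31, adjusted p = 0.054). That probe set carries a suffix marking probes that can match other transcripts. It was the lowest of 6 for Ndufs8, which ran from -0.31 to -0.02, and another of like brightness gave -0.18 (adjusted p = 0.42). Ndufs3 and Ndufs8, neighbours in that arm, thus lay on opposite sides of 0.

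The 28 accessory subunits of complex I ran from -0.48 to 0.57 with a median of -0.01. Next to the threshold stood Ndufa7 (0.36, adjusted p = 0.055) and Ndufb3 (0.34, adjusted p = 0.067) on the higher side and Ndufa8 (-0.32, adjusted p = 0.058) on the lower, each without overlap of the groups. They were named after their values were seen. Ndufb4 at the low end was not above background in all arrays of a group (55.97 ± 13.2 and 38.8 ± 25.9), so its log2 fold change of -0.48 is a difference between values near background.

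In complex II, succinate dehydrogenase, which also serves the citric acid cycle, 1 of 4 subunits fell. Sdhb, the iron-sulphur protein, read 3294, 3652 and 2896 in proliferating cells and 2520, 2348 and 2515 in differentiated cells. No array of one group reached the range of the other, and it fell by 0.41 (SE 0.10, adjusted p = 0.019). The flavoprotein Sdha had a log2 fold change of -0.03 (2286 ± 299 and 2233 ± 238), and the membrane anchors Sdhc and Sdhd had 0.06 and 0.04. The interval of the ratio was 0.82 to 1.17 for Sdha, 0.89 to 1.22 for Sdhc and 0.85 to 1.25 for Sdhd, all within 1.5-fold. At their second probe sets it was 0.80 to 1.10 for Sdha, 0.65 to 1.02 for Sdhc and 0.99 to 1.70 for Sdhd. Those of Sdhc and Sdhd thus reached beyond 1.5-fold, on opposite sides, and did not pass.

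In complex III, 1 of 8 subunits fell, and it had the largest decrease among subunits that passed. Uqcrc1, 1 of the pair of large core proteins on the matrix side, read 2630, 3481 and 3220 in proliferating cells and 2224, 1773 and 1750 in differentiated cells. The groups did not overlap and the mean dropped by 38.4%, a log2 fold change of -0.69 (SE 0.13, adjusted p = 0.002). Its partner Uqcrc2 read 3407, 2877 and 3210 against 2892, 3246 and 2469. Those groups overlapped, and the log2 fold change was -0.15 (adjusted p = 0.53), with an interval of the ratio of 0.76 to 1.07. A second probe set of Uqcrc2 pointed the other way, higher without overlap, and did not pass (0.15, adjusted p = 0.37). The Rieske iron-sulphur protein Uqcrfs1 read 2572, 2409 and 2274 against 2748, 2983 and 2819, higher on every differentiated array, and did not pass (0.24, adjusted p = 0.13). The other 5 small subunits, Uqcrb, Uqcrh, Uqcrq, Uqcr10 and Uqcr11, had log2 fold changes of 0.02 to 0.20, and the median of the complex was 0.05.

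In complex IV none of the 6 bright subunits passed. Cox5a, a nuclear subunit of the matrix side, read 5383, 7292 and 6180 against 4371, 5076 and 5225, lower without overlap (-0.35, adjusted p = 0.087). Cox5b, 9586 ± 1258 and 9205 ± 1468, had a log2 fold change of -0.06. Cox6c and Cox6b1 had 0.03 and 0.05, and Ndufa4 had -0.04, with 1 differentiated array at 7858 and the other two at 4715 and 5146.

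Among the complex IV isoforms that the symbol rule kept, in no pair did the forms pass in opposite directions. A pair could hardly have done so, because Cox4i2, Cox6b2, Cox7b2 and, in proliferating cells, Ndufa4l2 lay near background. Cox6a1, Cox6a2, Cox7a1, Cox7a2, Cox8a and Cox8b were left out by the rule. Genes were tested singly, and an exchange of isoforms was not tested. Cox4i1, the ubiquitous form of subunit 4, read 8316 ± 618 and 7078 ± 391 (-0.23, adjusted p = 0.20), while Cox4i2, the form known from lung, read 77.1 ± 15.2 and 54.1 ± 17.3, near the background of the arrays. The testis form Cox6b2 (53.9 ± 35.9 and 75.6 ± 31.5) and Cox7b2 (35.3 ± 16.8 and 30.8 ± 19.4) were likewise near it. Cox8c, the testis form of subunit 8, read 398 ± 3.11 and 439 ± 88.1, above background on all 6 arrays, with a log2 fold change of 0.12 (adjusted p = 0.75). A second, dimmer Cox8c probe set, 71.5 and 132 on average, was higher without overlap and did not pass (0.79, adjusted p = 0.20).

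Ndufa4l2 was the isoform that passed. It read 13.1, 60.9 and 27.5 in proliferating cells and 132, 136 and 145 in differentiated cells. All differentiated arrays were above background, and 1 of the 3 proliferating arrays was, so its log2 fold change of 1.76 (SE 0.45, adjusted p = 0.020) is poorly fixed, with an interval of 1.72-fold to 6.69-fold. Its level stayed dim, and Ndufa4 itself showed no change that passed.

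In complex V the values leaned to the lower side, although few subunits passed. Of 17 subunits 2 fell, none rose, 14 had a log2 fold change below 0, and all 8 with an unadjusted p under 0.05 were lower (47.1%). Genes with a mean signal of 1000 or more leaned the same way, though their median signal was 1810, beside 4926 for complex V. Of those 2285, 55.8% were below 0 and 36.7% were lower at an unadjusted p under 0.05. The median was -0.15, beside -0.07 for those genes, and it was -0.03 under quantile normalization. Atp5a1, the alpha subunit of the catalytic F1 head, read 7271, 7600 and 7242 in proliferating cells and 5476, 5450 and 4783 in differentiated cells. The groups were far apart, the mean dropped by 29.0% and the log2 fold change was -0.49 (SE 0.10, adjusted p = 0.004), but its second probe set, 3493 and 3276 on average, gave -0.09 (adjusted p = 0.67). Atp5mpl, a small membrane protein of the enzyme, read 2705, 3151 and 2249 against 1728, 2008 and 2214. The lowest proliferating array and the highest differentiated one were close, and it fell by 0.44 (SE 0.13, adjusted p = 0.046).

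The other large F1 subunits pointed the same way without passing. Atp5b, the beta subunit that holds the catalytic sites, read 14094, 14303 and 12703 against 11645, 10364 and 10815, lower without overlap (-0.32, adjusted p = 0.074). Atp5c1, the gamma subunit of the rotating shaft, read 6441, 7710 and 6027 against 5245, 5088 and 5523, again without overlap (-0.34, adjusted p = 0.063). The small F1 subunits Atp5d and Atp5e, delta and epsilon, each had 0.04, with intervals that overlap those of Atp5b and Atp5c1. Under quantile normalization Atp5b gave -0.10 and Atp5c1 -0.18.

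A set of 3 nuclear genes encodes an identical mature c subunit of the membrane ring, so their transcripts are alternatives for one protein. Atp5g1 read 4052 ± 887 and 3011 ± 468 (-0.42, adjusted p = 0.099), Atp5g2 7398 ± 785 and 6153 ± 627 (-0.26, adjusted p = 0.18) and Atp5g3 14399 ± 898 and 11966 ± 800 (-0.27, adjusted p = 0.16). All 3 were lower at an unadjusted p under 0.05 and none passed after adjustment. Quantile normalization brought them to -0.31, -0.10 and -0.03. Atp5o of the peripheral stalk had -0.25 (adjusted p = 0.19), the stalk as a whole had a median of -0.10 over 4 members, and Atp5l of the membrane part had 0.01.

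**Figure D3:**
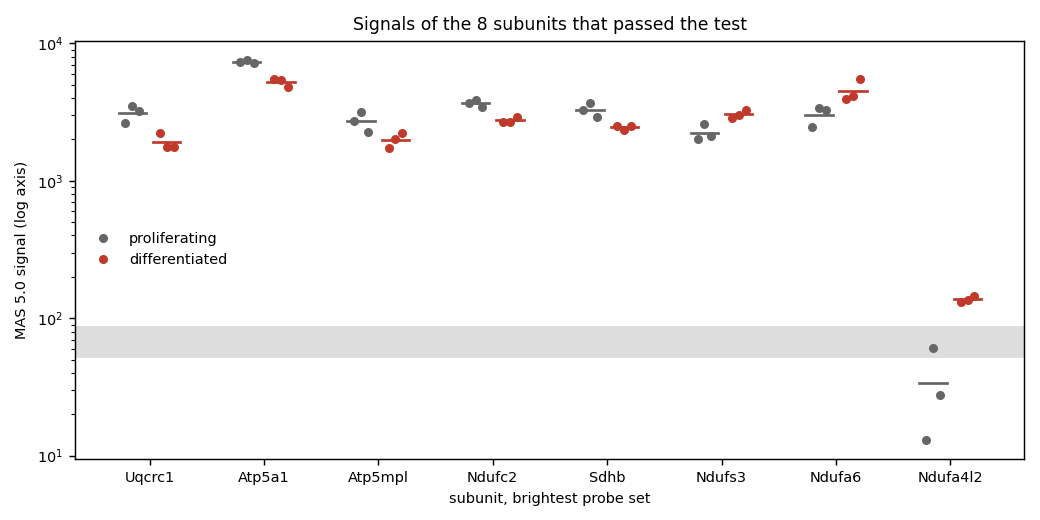
Array signal (y axis, log scale) of the 8 subunits that passed the test, at the brightest probe set, with 1 point per array and a line at the mean of each group (3 arrays each). The grey band spans the brightest bacterial control on the 6 arrays, 51.9 to 87.0, and Ndufa4l2 is the subunit that crosses it.

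Probe sets other than the brightest were set beside these values. The 75 subunits had 155 probe sets, 31 genes with 1 and 44 with several, and 134 of the 155 were above background in all arrays of a group. Of those 134, 3 passed higher and 5 lower, the same 8 genes, and the interval lay within 1.5-fold for 99. In 36 of the 41 genes with at least 2 such probe sets, their log2 fold changes lay within 0.585 of each other, which is 1.5-fold. A further, dim probe set of Uqcrq also passed, at 74.6 and 12.8 on average (log2 fold change -1.64, adjusted p = 0.039), but it was above background on 2 proliferating and no differentiated array, and the brightest probe set of that gene gave 0.20.

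The choice of variance model decided most calls. With eBayes without the trend in variance, Ndufa4l2 alone of the 75 passed. With the Bayesian regularized test 4 rose and 11 fell. Quantile normalization gave 9 higher and 4 lower, and it turned the median of complex IV to 0.08. It also put the medians of complexes I, II and III at 0.08, 0.07 and 0.19, beside 0.01, 0.01 and 0.05 in the main fit. Scaling to the 75th percentile gave 3 higher and 7 lower and turned the medians of complexes I, II and III to -0.04, -0.05 and -0.01. The median of complex V stayed below 0 under every scaling, at -0.03 with quantile normalization and -0.21 with the 75th percentile.

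A single pair of arrays carried much of the spread among subunits. Of the 67 bright subunits, 56 (83.6%) had their highest proliferating signal on replicate 2, and 55 (82.1%) their highest differentiated signal on replicate 3. Of the 2285 genes of that brightness, 47.2% and 36.2% did. The subunits' median deviation from the mean of their group was 0.17 and 0.16 on these arrays, beside 0.03 and -0.01 for the reference. The other arrays had subunit medians of -0.12, -0.06, -0.10 and -0.07.

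By complex the pattern was not even. On proliferating replicate 2, 26 of 32 bright complex I subunits, 3 of 4 of complex II, 6 of 8 of complex III, 5 of 6 of complex IV and 16 of 17 of complex V had the highest signal of their group. On differentiated replicate 3 these were 30, 2, 4, 6 and 13, so that complexes II and III stood at 50% there, with median deviations of 0.06 and 0.14. Among 42 genes for cytosolic ribosomal proteins, which have no part in the chain, 76.2% and 90.5% were highest on the same arrays. The ratio of 3′ to 5′ control probe sets, a sign of RNA quality, was 0.79 to 0.85 for Gapdh over the 6 arrays. For Actb it was 1.30, 1.31 and 1.23 on the proliferating arrays and 1.10, 1.11 and 1.07 on the differentiated ones, so it separated the groups, and of the 2 high arrays one had the highest ratio of its group and the other the lowest. The part of RNA quality in the array pattern and in the differences between groups was not tested.

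Since the high array lay in each group, differences between groups depended on both. Without proliferating replicate 2, 7 subunits were higher and 3 lower. Without differentiated replicate 3, 0 were higher and 8 lower, and the medians of complexes IV and V were -0.23 and -0.32. With both left out, an alternative chosen after seeing the data, 7 were higher and 5 lower, 6 of the 8 calls remained, and complex V had a median of -0.25. Without proliferating replicate 1 the counts were 0 and 4, without proliferating replicate 3 they were 1 and 5, and without differentiated replicate 1 or 2 they were 2 and 3. Uqcrc1, Atp5a1 and Ndufc2 passed in each of the 6 fits that left out 1 array.

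**Figure D4:**
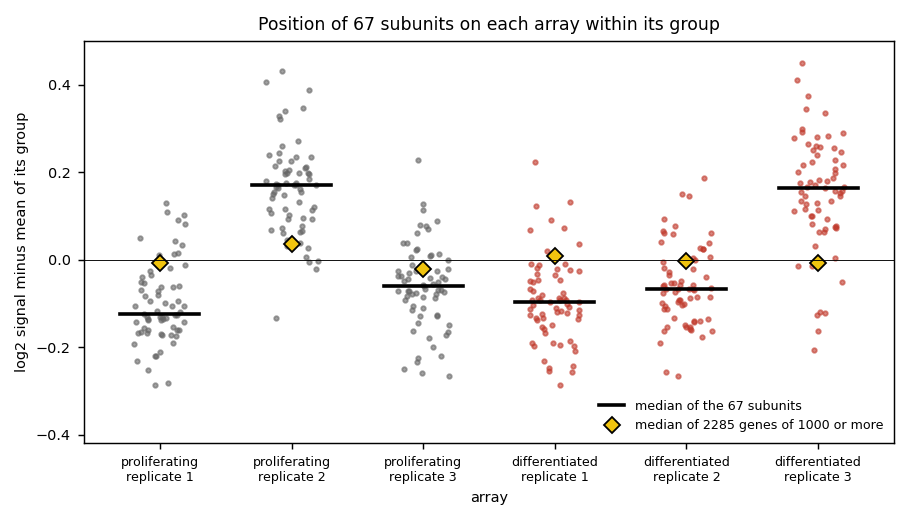
Deviation of log2 signal from the mean of its own group (y axis) for 67 subunits with a mean signal of 1000 or more, by array (x axis, 3 per group). Points are subunits, bars their median and diamonds the median of 2285 genes of that brightness, and bars stand at 0.17 on proliferating replicate 2 and 0.16 on differentiated replicate 3.

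The assembly factors met by the same naming rule build the complexes but leave them afterwards. Of 20, 3 rose, 1 fell and 16 did not pass, with a median of 0.06, and the 4 are 20.0% beside 17.6% of all genes. Ndufaf1, an early factor of complex I, read 431 ± 33.7 and 676 ± 90.7 (0.63, adjusted p = 0.006). Ndufaf3, which acts in the same pathway, read 367 ± 22.1 and 512 ± 42.7 (0.46, adjusted p = 0.034). Cox17, a copper chaperone of complex IV, read 3001 ± 272 and 4242 ± 467 (0.50, adjusted p = 0.008), and Cox18, which inserts a complex IV subunit into the membrane, fell from 916 ± 76.3 to 694 ± 28.8 (-0.39, adjusted p = 0.030).

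Assembly factors named otherwise, 28 measured of 30 listed, gave 1 higher and 2 lower (10.7%, beside 17.6% of all genes) with a median of 0.04. Uqcc1, a factor for complex III, rose from 350 ± 66.8 to 703 ± 94.5 (0.98, adjusted p = 0.001). Cmc2, of complex IV, fell from 867 ± 87.7 to 279 ± 27.2 (-1.58), and Acad9, of complex I, fell from 369 ± 60.4 to 197 ± 8.13 (-0.84, adjusted p = 0.005).

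Among the carriers and the enzymes that feed ubiquinone, changes ran in both directions. Of 19 measured, 3 rose and 5 fell, 42.1% beside 17.6% of all genes, with a median of 0.09. Cytochrome c (Cycs) read 6315, 7146 and 7960 in proliferating cells and 4267, 4312 and 5392 in differentiated cells, and fell by 0.62 (SE 0.12, adjusted p = 0.004). Cyc1, the cytochrome of complex III that the symbol rule does not take, fell by 0.34 (SE 0.10, adjusted p = 0.049). The strongest decrease was that of Gpd2, the mitochondrial glycerol phosphate dehydrogenase, from 1706 ± 205 to 571 ± 51.8 (-1.55).

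Those that passed on the ubiquinone side of this list were Coq8a, Coq9, Coq10a and Coq7, while Coq2, Coq3, Coq4, Coq5, Coq6, Coq10b and Pdss2 did not (log2 fold changes of -0.35 to 0.41). Coq8a read 13.4, 26.8 and 59.0 against 419, 385 and 391.6, a log2 fold change of 3.22 with 1 of 3 proliferating arrays above background. Coq9 rose from 584 ± 64.4 to 1001 ± 33.3 (0.77), while Coq7, which acts together with it, fell from 462 ± 71.3 to 231 ± 35.7 (-0.96, adjusted p = 0.002). Coq10a, a ubiquinone-binding protein, rose by 0.72 (adjusted p = 0.010), and Etfb, which brings electrons from fatty acid oxidation, fell by 0.84 (adjusted p = 0.001). Etfa, lower without overlap (-0.27, adjusted p = 0.10), and Etfdh, higher without overlap (0.34, adjusted p = 0.081), did not pass.

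A list of ATP export and coupling held carriers, porins, creatine kinases, an uncoupling protein, the ATP synthase inhibitor and the calcium uniporter Mcu. Of 11 measured, none rose and 3 fell (27.3%, beside 17.6% of all genes and 48.7% of those at 1000 or more), with a median of -0.18. The 3 were all carriers. Slc25a5, an ADP/ATP carrier known from dividing cells, fell from 8809 ± 982 to 4567 ± 210 (-0.94), and Slc25a4, the carrier typical of heart and muscle, fell from 8501 ± 786 to 6023 ± 153 (-0.49, adjusted p = 0.005). Both were read at probe sets with a suffix marking probes that can match other transcripts. Whether these probe sets tell Slc25a4 and Slc25a5 apart was not tested. The phosphate carrier Slc25a3 fell from 13159 ± 908 to 8665 ± 597 (-0.60, adjusted p = 0.002).

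Another list held general mitochondrial genes. Of 12, Opa1, which fuses the inner membrane, rose from 506 ± 54.6 to 839 ± 170 (0.70, adjusted p = 0.008), and 6 fell, with a median of -0.38. These 7 are 58.3% of the list, beside 17.6% of all genes and 48.7% of those with a mean signal of 1000 or more. The largest decreases were those of the chaperonin Hspd1, from 10743 ± 846 to 5796 ± 273 (-0.89), and of the import channel Tomm40, from 1213 ± 81.9 to 669 ± 50.4 (-0.85). Citrate synthase (Cs), an enzyme of the citric acid cycle, fell from 6693 ± 490 to 5004 ± 550 (-0.42, adjusted p = 0.022). The difference between these lists and the subunits was not tested.

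Of the subunits encoded in mitochondrial DNA, ND5 was measured by a probe set of its own. It read 16207, 12577 and 12300 in proliferating cells and 16077, 19809 and 16752 in differentiated cells. The groups overlapped, and the log2 fold change of 0.36 did not pass (adjusted p = 0.12).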

How the data were processed

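RNA of 3 proliferating and 3 differentiated C2C12 samples was measured on 1 array each. The authors deposited intensity as linear MAS5 signals, with each array scaled to a mean of 250 after trimming 2% at either end. By the study's methods, each RNA sample combined pools from cultures begun on successive days, so p-values measure the spread between pooled samples, not between single cultures. Its later GCRMA step needs probe-level data and was not repeated here.

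Of 45101 probe sets, 64 controls were left out and 45037 fitted, in limma 3.58.1 (R 4.3.3), on log2(signal + 15), 15 being the 20th percentile of all values, with lmFit and eBayes with trend, 2-sided. Adjusted p-values are Benjamini-Hochberg over all 45037, of which 12.6% were under 0.05. Gene names come from the platform annotation (34945 probe sets with 1 gene, 932 with several, 9160 with none), and a gene is represented by the brightest of its own probe sets. A probe set is above background where it exceeds the brightest bacterial control of that array. The 11 probe sets that members share with other genes were left out, so 9 genes, such as Ndufa11, Ndufs6 and Cox14, have no value here. Same-numbered samples of the groups were not paired by label.

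Members and lists were chosen with earlier results of these data known. Named were members that passed, the core catalytic subunits, isoforms, and in other lists the 2 largest rises and falls that passed, with a few more as stated. Motifs were searched with Python 3.11.15. The fit was tested on simulated data. Alternatives were quantile normalization, the 75th percentile, pseudocounts of 5 and 50, leaving out probe sets under 100, eBayes without trend, a Bayesian regularized test, a replicate block, leaving out each array, the mean over probe sets, no probe sets with _s_at or _x_at suffixes, an adjusted p under 0.01, a 1.5-fold threshold and, added after seeing the data, both high arrays left out. The number of arrays limits the precision.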

Additional observations from a re-analysis of the deposited data

How the results depend on the processing

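Of 679 values of the 36 named genes under 19 alternatives, 614 kept their side of the threshold, 49 of them uncalled values that changed sign, 44 no longer passed, 20 newly passed, and 1 reversed: without _s_at and _x_at probe sets Ndufc2 gave a log2 fold change of 0.05 (0.0499, adjusted p = 0.86). Medians of the complexes moved by less than the spread in 93 of 95 cases, and the 2 exceptions were complexes IV and V without differentiated replicate 3, at -0.23 and -0.32 (leaving out 1 array gave -0.23 to 0.063 and -0.32 to -0.080). The counts moved more. Subunits higher, 3 in the report, were 9 with quantile normalization, 5 without dim probe sets, 1 without trend, 0 at an adjusted p under 0.01, 1 at 1.5-fold, 7 without both high arrays, and 0 to 7 leaving out 1 array. Subunits lower, 5 in the report, were 12 without dim probe sets, 0 without trend, 11 with the regularized test, 2 with the mean over probe sets, 3 under 0.01, 1 at 1.5-fold, and 3 to 8 leaving out 1 array.

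In complex I, 2 higher became 7 with quantile normalization, 3 with a pseudocount of 5, the regularized test, the block or the mean over probe sets, 4 without dim probe sets, 6 without both high arrays, 0 without trend, under 0.01 or at 1.5-fold, and 0 to 6 leaving out 1 array. Its 1 lower became 3 with the 75th percentile, without dim probe sets or with the regularized test, 2 without both high arrays, 0 without trend, with the mean over probe sets, without _s_at and _x_at probe sets or at 1.5-fold, and 1 to 3 leaving out 1 array. In complex II, 1 lower became 0 without trend, under 0.01, at 1.5-fold or without both high arrays, and 0 to 1 leaving out 1 array. In complex III, 0 higher became 1 with quantile normalization and 1 lower became 0 without trend. In complex IV, 1 higher became 0 under 0.01 and 0 to 1 leaving out 1 array, and 0 lower became 1 without dim probe sets or with the regularized test and 0 to 1 leaving out 1 array. In complex V, 2 lower became 1 with quantile normalization, a pseudocount of 50, the block or under 0.01, 6 without dim probe sets, 5 with the regularized test, 0 without trend, with the mean over probe sets or at 1.5-fold, and 1 to 3 leaving out 1 array. Fewer probe sets were tested without dim ones; other causes were not tested.

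Same-numbered arrays of the 2 groups did not deviate together (correlations of 0.07, 0.01 and -0.00), and the labels do not pair them. Whether they shared a day of culture or of processing cannot be read from these values. With the replicate block 4 subunits were higher and 4 lower, and 7 of the 8 calls were shared. Scaling moved the median of all genes by under 0.1, and 48.9% of genes that passed were higher, and 43.2% with the 75th percentile. A dim probe set such as that of Ndufa4l2 gives no firm fold change.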
